A study of Mus musculus with 16 samples.

Results

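The genes described here are 32 genes of the segmentation clock, the Notch pathway, the early somite and the myotome. They were chosen by name for their known roles, out of 26411 genes counted in each library, when earlier results of these data were known. The libraries were made from 16 whole mouse embryos (embryonic day 9.5), with 4 embryos for each of 4 genotypes. Kat6a+/+Kat6b+/+ embryos were wild type at both loci. Kat6a-/-Kat6b+/+ embryos were homozygous for a Kat6a null allele that lacks several exons. Kat6a+/+Tg(Kat6b) embryos had intact Kat6a and carried a bacterial artificial chromosome transgene, which holds the whole Kat6b gene with its flanking regulatory sequence and is inserted in several copies, so that it is driven by Kat6b sequences and not by a tissue-specific promoter. Kat6a-/-Tg(Kat6b) embryos carried the transgene without functional Kat6a. Kat6a and Kat6b encode related histone acetyltransferases, and the study asked whether more Kat6b can make up for the loss of Kat6a. All animals shared an FVB x BALB/c hybrid background, the transgene came from a founder line, no dissection separated somites from other tissues, and each genotype held 2 female and 2 male embryos.

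Somites are the segments of mesoderm that give rise to vertebrae, skeletal muscle and dermis. They form in turn from the presomitic mesoderm, where a clock of Notch, Wnt and Fgf feedback drives waves of transcription, so that mRNA of Hes7 and Lfng appears and disappears with each new segment. A Notch receptor that has bound a Delta or Jagged ligand is cut, and its intracellular part joins the DNA-binding protein RBPJ to switch on Hes, Hey and Nrarp genes. Mesp2 and the Ripply genes set the segment boundary, Tcf15 and Meox1 act in the epithelial somite, Pax1 and Nkx3-2 mark the sclerotome that forms the vertebrae, and Myf5, Myf6, Myod1 and Myog are the muscle regulatory factors of the myotome. Most of these genes are also used elsewhere in an embryo of this age, Hes5 and Notch1 in the neural tube and Notch3 in vessel walls among them.

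RBPJ binds a core written TGGGAA, and 4 promoters are shown, of some of the genes with results below (Rbpj, Lfng and Uncx) and of a known direct target (Hes5). They are the 250 bases before the transcription start in RefSeq annotation of GRCm38.p6, all on the plus strand, at chr4:154960673-154960922 for Hes5, chr5:140607091-140607340 for Lfng, chr5:53590096-53590345 for the first of the windows of Rbpj and chr5:139543648-139543897 for Uncx. Capitals mark TGGGAA, or TTCCCA where the core lies on the other strand.
Hes5: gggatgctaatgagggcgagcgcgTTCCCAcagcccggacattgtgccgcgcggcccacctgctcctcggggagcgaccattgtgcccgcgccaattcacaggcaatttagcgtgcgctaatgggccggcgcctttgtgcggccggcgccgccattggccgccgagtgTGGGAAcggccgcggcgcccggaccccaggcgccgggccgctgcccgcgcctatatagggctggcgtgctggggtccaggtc
Lfng: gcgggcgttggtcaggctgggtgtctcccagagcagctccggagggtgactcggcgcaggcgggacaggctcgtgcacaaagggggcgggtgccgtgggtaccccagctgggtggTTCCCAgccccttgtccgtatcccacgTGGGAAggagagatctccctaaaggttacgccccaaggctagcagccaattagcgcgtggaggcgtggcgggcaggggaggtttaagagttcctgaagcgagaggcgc
Rbpj: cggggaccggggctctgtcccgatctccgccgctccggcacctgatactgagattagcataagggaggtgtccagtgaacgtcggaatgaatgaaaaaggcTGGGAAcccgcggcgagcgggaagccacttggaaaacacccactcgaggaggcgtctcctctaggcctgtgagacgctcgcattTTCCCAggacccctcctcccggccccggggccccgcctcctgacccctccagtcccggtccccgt
Uncx: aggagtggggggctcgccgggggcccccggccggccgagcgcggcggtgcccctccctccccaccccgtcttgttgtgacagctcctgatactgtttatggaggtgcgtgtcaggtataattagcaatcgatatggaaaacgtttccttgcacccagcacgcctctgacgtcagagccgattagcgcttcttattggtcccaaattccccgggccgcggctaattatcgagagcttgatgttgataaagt
Between the end of the core and the transcription start lie 220 and 76 bases for Hes5, 129 and 102 for Lfng and 143 and 59 for Rbpj, and the core is not in these letters of Uncx. The core is also absent from the windows of Dll1 and Notch2, which have results below and are not shown. A promoter was found for 24 of the 32 genes, in 26 windows, and 26.9% of these hold the core on either strand, against 21.6% of all 32851 windows of this length. The E-box CANNTG, which can share 2 letters with the core, as it does in the window of Lfng, was in 65.4% against 66.2%, the N-box CACNAG in 38.5% against 36.7% and the T-box site AGGTGT in 7.69% against 11.8%. The 8 genes without an entry were Tcf15, Heyl, Hes1, Myod1, Hey1, Mfng, Meox1 and Myf6. A match is a string of letters and was not tested as a binding site.

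The libraries held 14407277 to 45665680 counts, with a median of 23042414, and the 32 genes took 0.119% to 0.139% of them. Kat6b was at 42.6 to 48.2 CPM (counts scaled to the normalized library size) in wild-type embryos, 46.5 to 51.0 in Kat6a-/-Kat6b+/+, 155 to 227 in Kat6a+/+Tg(Kat6b) and 192 to 203 in Kat6a-/-Tg(Kat6b) embryos. Counts over the whole Kat6a gene do not check the null allele, since most of its exons remain. The whole-embryo label was checked against 7 marker lists of neural tube, heart, primitive red cells, endothelium, gut and liver endoderm, limb bud and yolk sac. All 5 genes of each list were counted, and a gene at 0 in all embryos of a genotype was found only in the yolk sac list. The summed limb bud markers were at 70.4 to 85.3 CPM in Kat6a-/-Kat6b+/+ embryos and 94.7 to 104 in wild-type embryos, and the gut and liver markers at 54.8 to 63.9 and 63.4 to 109. The embryos came from 6 litters. The Kat6a-/-Tg(Kat6b) embryos came from 2 litters that held no other genotype analysed here, so for them genotype and litter cannot be told apart.

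Levels between genes were compared as RPKM, which scales counts to gene length as well as to library size. In wild-type embryos (n = 4) the 32 genes ran from 0.139 ± 0.125 RPKM (SD) for Myod1 to 44.7 ± 5.91 for Meox1. 14 genes were at 10 RPKM or more and 5 were under 1 RPKM. Among the cyclic and Notch target genes Nrarp, an inhibitor of Notch signalling, was highest (35.5 ± 3.64) and Hes7, the clock repressor, lowest (1.93 ± 0.877), with Hes5 at 34.0 ± 6.05, Hes1 at 26.0 ± 2.95 and Lfng, a glycosyltransferase that modifies Notch, at 20.5 ± 1.40. The ligands lay between Jag2 (5.99 ± 0.664) and Dll1 (18.1 ± 0.533), and the receptors and their effector between Rbpj (9.84 ± 0.260) and Notch3 (29.4 ± 2.28). Over the 14 genes at 10 RPKM or more, which include the somite genes Meox1, Tcf15 and Pax1, the coefficient of variation between wild-type embryos was 2.94% to 17.8%, and for Hes7 it was 45.5% and for Heyl 24.2%.

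The genes of the presomitic mesoderm and segment boundary were much lower. Ripply2 was at 0.253 ± 0.203 RPKM, Mesp1 at 0.274 ± 0.266, Mesp2 at 0.487 ± 0.394, and the highest of the group, Msgn1, which promotes mesoderm differentiation, at 4.39 ± 2.75. Mesp1 had 0 to 21 counts and Myod1 0 to 11 counts per embryo, so these genes were not tested, which left 30. Of the genes of the epithelial somite Meox1 was highest and Meox2 lowest (6.10 ± 0.401), Pax1 (13.4 ± 1.79) was above Nkx3-2 (2.65 ± 0.444) in the sclerotome, and the myotome genes lay between Myod1 and Myog (3.94 ± 0.920). The 10 genes with the lowest levels had coefficients of variation of 16.8% to 97.3%. Over all 16 embryos Mesp2 ran from 0.104 to 2.60 CPM, Hes7 from 1.97 to 5.58 and Msgn1 from 0.686 to 5.82, and in wild-type embryos alone Hes7 ran from 2.20 to 5.58 and Msgn1 from 0.686 to 4.18. Neighbours in the order of levels, such as Uncx at 9.81 ± 0.990 and Rbpj or Notch2 (11.4 ± 1.22) and Dll3 (11.9 ± 0.873), did not differ beyond their spread.

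**Figure D1:**
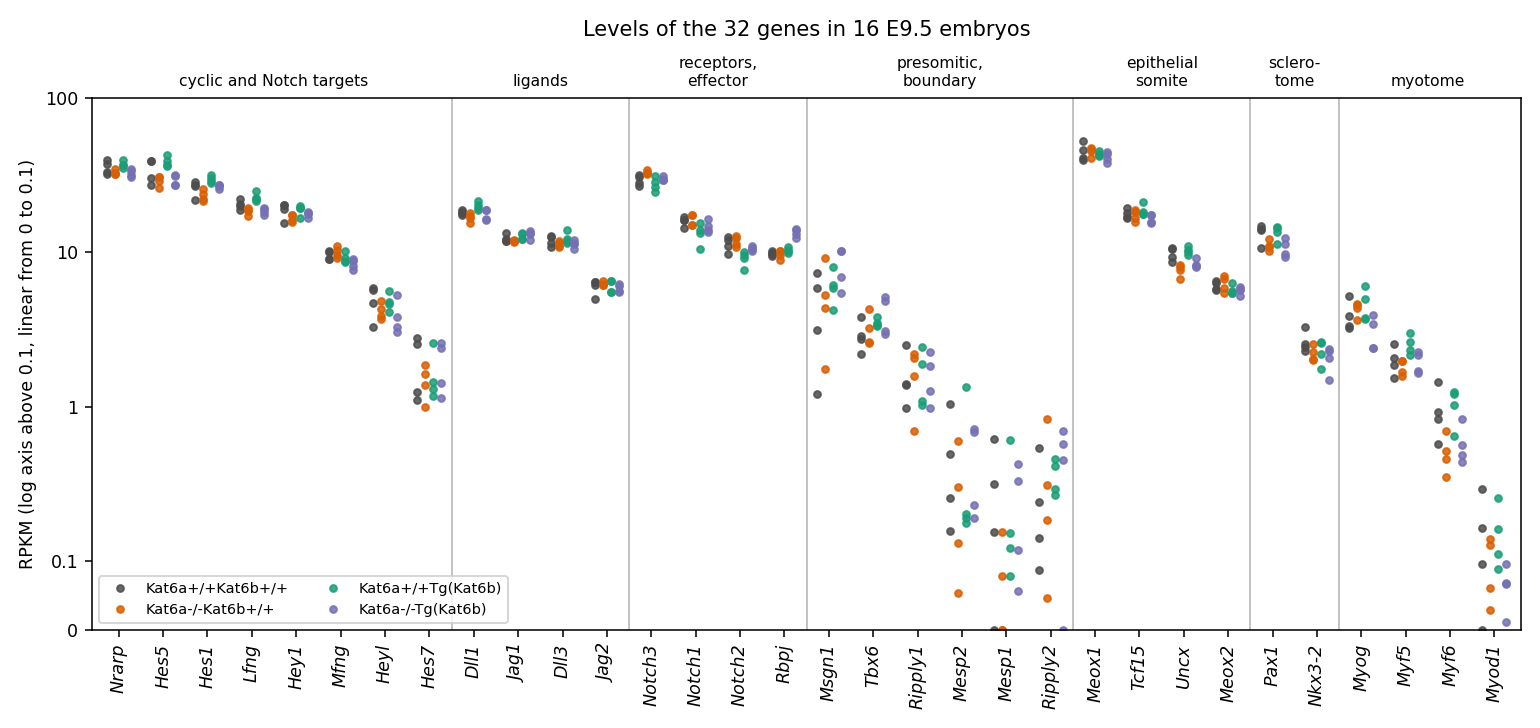
Level of each of the 32 genes in each of the 16 embryos, in RPKM on an axis that is logarithmic above 0.1 and linear below it, with genes grouped by role and embryos coloured by genotype. The points of the 4 genotypes lie on top of each other for most genes, and the spread is widest for Mesp1, Mesp2, Ripply2 and Myod1.

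Each pair of genotypes was tested with edgeR's quasi-likelihood test on the counts of 15679 genes, in 1 fit over all 16 embryos with 2 surrogate variables for unwanted variation, and a gene was called at a false discovery rate (FDR) under 0.05 over all genes tested. Of the 30 genes tested, 6 were called in at least 1 of the 5 contrasts or the interaction (Rbpj, Uncx, Lfng, Dll1, Notch2 and Meox1) and 24 in none. Contrasts that use the same genotype share its embryos and are not independent. In whole-embryo RNA, fewer cells of a type and less RNA per cell cannot be told apart.

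Loss of Kat6a was described first by Kat6a-/-Kat6b+/+ against wild-type embryos. Uncx, a homeobox gene of the posterior part of each somite, needed for the vertebral pedicles and ribs, was called lower, and none was called higher. Uncx (Entrez 22255, GRCm39 chr5:139529249-139533934, plus strand) was at 22.1, 22.4, 18.04 and 19.6 CPM in wild-type embryos and at 14.1, 16.9, 17.4 and 16.1 CPM in Kat6a-/-Kat6b+/+ embryos. All 4 mutant values lay below all 4 wild-type values. The log2 fold change was -0.34 (SE 0.0712, 95% interval -0.49 to -0.19, edgeR FDR 0.0136). This 1 of 30 genes stands beside 1.88% of all genes called in either direction, 0.944% higher and 0.938% lower. Ranges that lay apart downwards were found for 4.01% of all genes. The order held within both litters that had the 2 genotypes: in litter 801 wild type was at 22.1 CPM and the mutants were at 14.1 and 16.9, and in litter 803 wild type was at 22.4 and the mutants were at 17.4 and 16.1. With litter as a block and no surrogate variable the log2 fold change was -0.46 (edgeR FDR 0.0959), and with no surrogate variable alone -0.35 (FDR 0.0604). Uncx was not called without wild-type replicate 2 (-0.31, FDR 0.0705), wild-type replicate 4 (-0.33, FDR 0.0536) or Kat6a-/-Kat6b+/+ replicate 4 (-0.31, FDR 0.0680).

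Of the other 29 genes none was called when Kat6a was lost, with intervals that were narrow for the Notch genes and wide for Hes7 (log2 fold change -0.46, 95% interval -1.28 to 0.36) and Mesp2 (-1.003, -3.29 to 1.28). The median log2 fold change of the 30 genes was -0.07, against 0.0033 over all genes tested, with 18 below 0 and 12 above, beside 48.8% of all genes below 0. Of the 8 cyclic and Notch target genes 7 were below 0, with a median of -0.16, and 5 of them (Hes1, Hes5, Hey1, Lfng and Nrarp) had an unadjusted p under 0.05, but none was called. Hes5, a Notch target of neural and presomitic cells, had a log2 fold change of -0.20 (95% interval -0.35 to -0.04, edgeR FDR 0.200), and it was at 0.012 with litter as a block. Nrarp was at 0.018 in that run. It was at 102 and 96.9 CPM in wild-type embryos of litters 2597 and 2598, which held no Kat6a-/-Kat6b+/+ embryo. In litter 801 wild type was at 84.97 and the mutants at 82.48 and 84.92. In litter 803 these were 82.8, 83.4 and 89.1. Lfng was lower in the mutants in both litters, Hes1 only in litter 803 and Hey1 and Heyl only in litter 801. The part of litter in the shift of these genes was not tested. Across the 30 genes 8 were lower and 1 higher at an unadjusted p under 0.05, beside 7.93% and 7.3% of all genes. Notch3 was the gene higher, at 250, 215, 254 and 227 CPM in wild type and 262, 261, 276 and 262 in Kat6a-/-Kat6b+/+ embryos, so its ranges did not overlap, as for 3.96% of all genes in that direction. Its log2 fold change was 0.17 (95% interval 0.05 to 0.29, edgeR FDR 0.140). Pax1, the sclerotome gene, had a log2 fold change of -0.27 (-0.48 to -0.06, edgeR FDR 0.194). Leaving out wild-type replicate 4 gave Pax1 an FDR of 0.0414 and leaving out replicate 1 of Kat6a+/+Tg(Kat6b) gave it 0.0360, and without wild-type replicate 1 the FDR of Hes1 was 0.0367. Myf6 had -0.82 (-1.42 to -0.22, edgeR FDR 0.162), at a wild-type level of 0.949 ± 0.373 RPKM.

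The transgene alone was described by Kat6a+/+Tg(Kat6b) against wild-type embryos. None of the 30 genes was called by edgeR, beside 0.14% of all genes. At an unadjusted p under 0.05, 5 were higher (Hes1, Hes5, Lfng, Dll1 and Tbx6) and 2 were lower (Notch1 and Notch2), beside 4.09% and 7.42% of all genes. With litter as a block the log2 fold change of Hes5 turned to -0.023. The median log2 fold change of the 30 genes was 0.05. Notch2, a receptor, was nearest to a call. It was at 131, 103, 127 and 116 CPM in wild type and at 81.0, 101, 105 and 96.2 CPM with the transgene, and the ranges overlapped. Its log2 fold change was -0.34 (95% interval -0.49 to -0.19, edgeR FDR 0.0692), and it was called by DESeq2 (adjusted p = 0.000574) and, in edgeR, without wild-type replicate 4 (-0.38, FDR 0.0295). Notch1 had -0.29 (-0.44 to -0.13, edgeR FDR 0.154), with DESeq2 at -0.29 (adjusted p = 0.00942). Kat6a+/+Tg(Kat6b) replicate 1 had the lowest CPM of all 16 embryos for both receptors and stands apart over long genes, as described under Notch2 further on. Without it the log2 fold change was -0.26 for Notch2 and -0.18 for Notch1, and neither was called by edgeR. Tbx6, which directs presomitic cells away from a neural fate, had 0.35 (0.12 to 0.59, edgeR FDR 0.214), and all 5 tested genes of the presomitic group were above 0. Dll1 was at 69.0, 64.4, 67.9 and 66.5 CPM in wild type and 71.2, 74.4, 79.5 and 69.8 with the transgene. Its ranges did not overlap, as for 1.62% of all genes in that direction, and its log2 fold change was 0.14 (0.03 to 0.25, edgeR FDR 0.263).

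**Figure D2:**
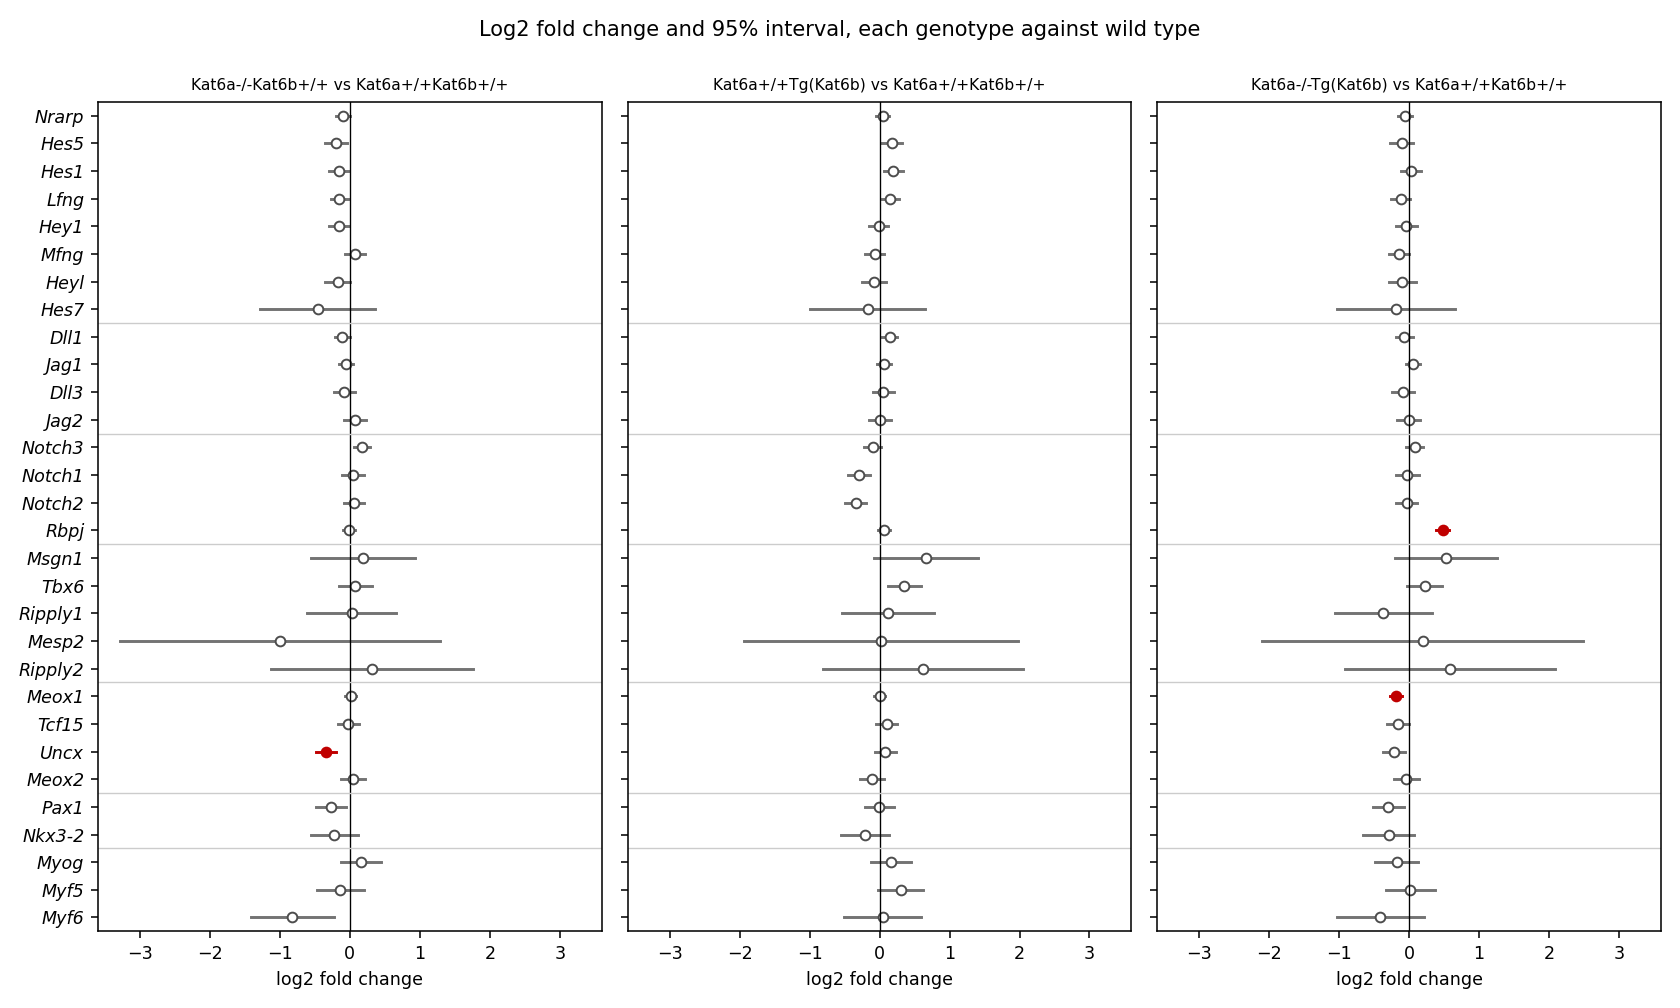
Log2 fold changes of the 30 tested genes against wild type with their 95% intervals, in 1 panel for each of the other 3 genotypes, with filled red points for genes at an edgeR FDR under 0.05. Filled points are Uncx without Kat6a and Rbpj and Meox1 in Kat6a-/-Tg(Kat6b) embryos, and the intervals are widest for Mesp2 and Ripply2.

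Rbpj, the DNA-binding effector of all Notch receptors, had the lowest FDR of the 30 genes tested in each of the 3 contrasts with Kat6a-/-Tg(Kat6b) embryos and in the interaction. Rbpj (Entrez 19664, GRCm39 chr5:53623494-53814704, plus strand) was at 58.2, 58.8, 60.5 and 56.8 CPM in wild-type embryos and at 57.0, 53.0, 60.4 and 60.9 CPM in Kat6a-/-Kat6b+/+ embryos. The Kat6a+/+Tg(Kat6b) values were 61.7, 59.2, 64.4 and 61.2 CPM, and the Kat6a-/-Tg(Kat6b) values were 83.2, 74.0, 84.9 and 78.8 CPM. The 4 Kat6a-/-Tg(Kat6b) values lay above all 12 others, while the other 3 genotypes overlapped. Of all genes 3.42% had ranges that lay higher and apart in Kat6a-/-Tg(Kat6b) than in wild-type embryos. The log2 fold change was 0.48 (SE 0.0434, 95% interval 0.39 to 0.57, edgeR FDR 1.48e-06) against wild type, 0.50 (SE 0.0423, FDR 7.15e-07) against Kat6a-/-Kat6b+/+ and 0.41 (SE 0.0448, FDR 4.02e-05) against Kat6a+/+Tg(Kat6b). Against wild type it was -0.02 (-0.10 to 0.07) without Kat6a and 0.07 (-0.02 to 0.16) with the transgene alone. The interaction, which asks whether the difference between Kat6a-/- and Kat6a+/+ embryos changed with the transgene, was 0.43 (SE 0.0606, 95% interval 0.30 to 0.55, edgeR FDR 0.00209), and Rbpj was the 1 gene called of the 30, beside 0.153% of all genes.

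The call of Rbpj held in each of the 16 fits that left out 1 embryo, with log2 fold changes of 0.46 to 0.50 against wild type and an interaction of 0.40 to 0.46. The 3 embryos of litter 483 were at 83.2, 74.0 and 84.9 CPM and the embryo of litter 498 at 78.8, and no other genotype came from these litters. Of the 20 tested genes within 5000000 bases of Rbpj on either side, none was called against wild type, against Kat6a+/+Tg(Kat6b) or in the interaction, and 1 was called against Kat6a-/-Kat6b+/+ (5% beside 7.14% of all genes). No annotated gene on the opposite strand overlaps an exon of Rbpj. The annotation holds the processed pseudogenes Rbpj-ps1 and Rbpj-ps3, and how reads shared with such copies were counted is not given in the sources used here, so the level carries that uncertainty.

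**Figure D3:**
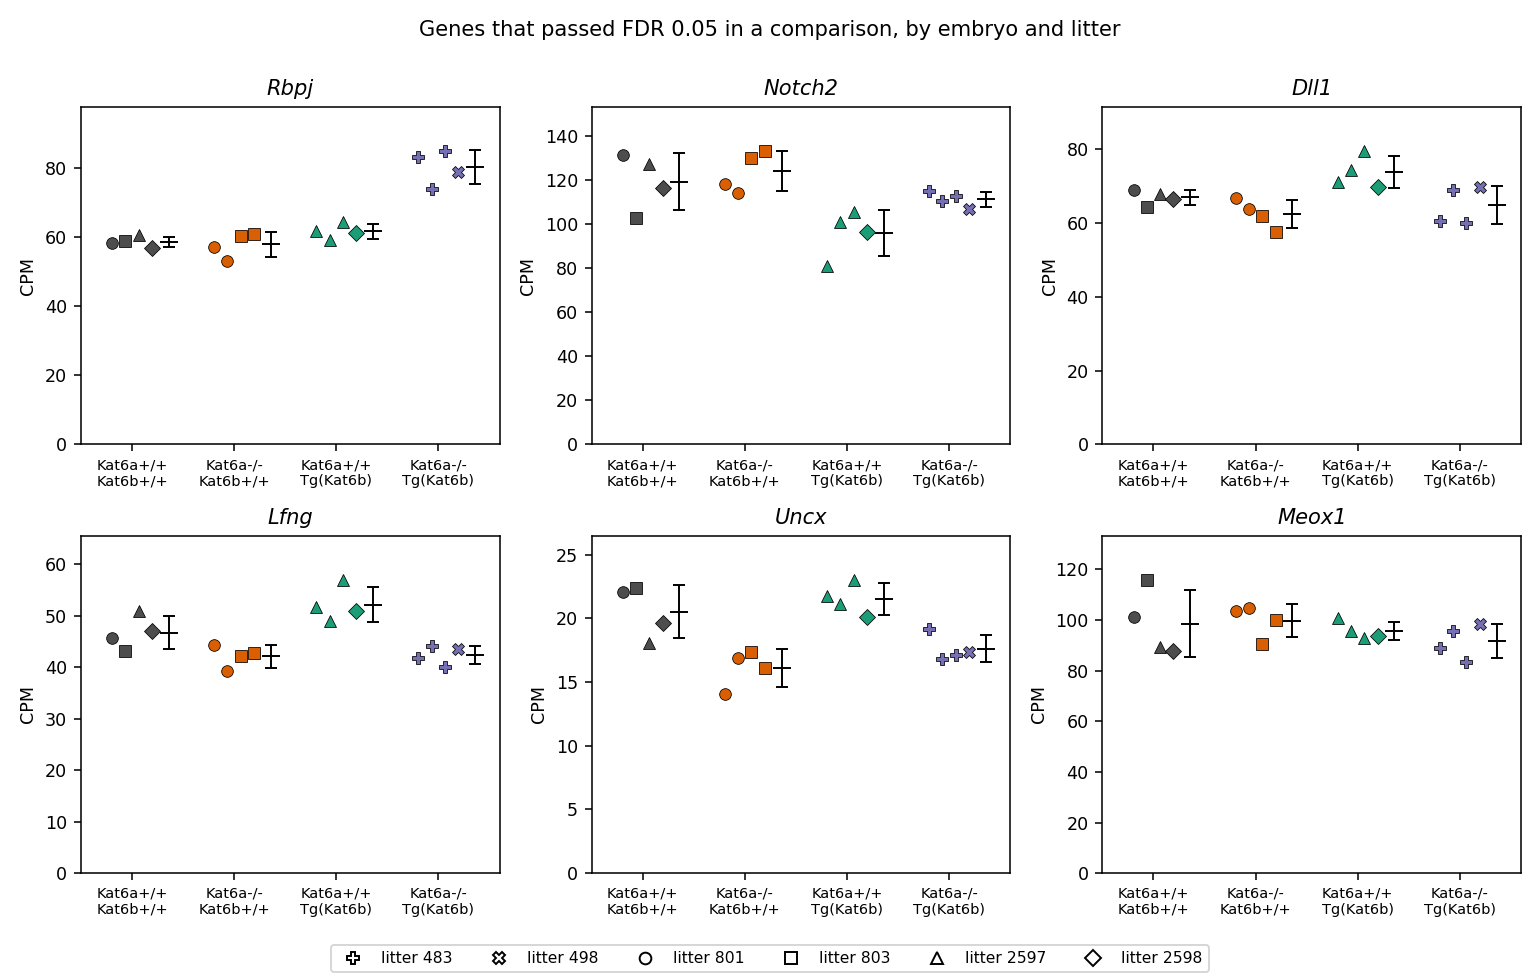
CPM of the 6 called genes in each embryo, in 1 panel a gene, with genotypes along the horizontal axis, marker shape for litter and a bar for the mean ± SD (n = 4). In the panel of Rbpj all 4 Kat6a-/-Tg(Kat6b) embryos sit above 73, and in that of Uncx all 4 Kat6a-/-Kat6b+/+ embryos sit below the wild-type embryos.

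In Kat6a-/-Tg(Kat6b) against wild-type embryos 28 of the 30 genes were not called, among them Ripply2 (log2 fold change 0.58, 95% interval -0.91 to 2.08) and Msgn1 (0.53, -0.20 to 1.26), whose intervals were wide. Of the 30 genes 1 was called higher (Rbpj) and 1 lower (Meox1), beside 0.274% and 0.395% of all genes. At an unadjusted p under 0.05 there were 1 higher and 3 lower, beside 5.72% and 6.95% of all genes. The median log2 fold change was -0.06, with 21 genes below 0, beside 51.2% of all genes below 0. Uncx was at 19.2, 16.8, 17.1 and 17.3 CPM, between the wild-type and the Kat6a-/-Kat6b+/+ means, with a log2 fold change of -0.22 (-0.37 to -0.06, edgeR FDR 0.204) against wild type and 0.12 (-0.03 to 0.28, FDR 0.336) against Kat6a-/-Kat6b+/+. Its interaction was 0.04 (-0.18 to 0.26), so the difference in Uncx was not shown to change with the transgene. Pax1 had -0.30 (-0.52 to -0.08, edgeR FDR 0.233), and without Kat6a+/+Tg(Kat6b) replicate 1 its FDR was 0.0339.

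Meox1, a homeobox gene needed with Meox2 for the axial skeleton, was called lower in Kat6a-/-Tg(Kat6b) embryos against each other genotype, but the calls rest on the surrogate variables. Meox1 (Entrez 17285, GRCm39 chr11:101768336-101785227, minus strand) was at 101, 116, 89.5 and 87.7 CPM in wild type, 104, 105, 90.5 and 100.02 in Kat6a-/-Kat6b+/+, 101, 95.8, 93.1 and 93.7 in Kat6a+/+Tg(Kat6b) and 89.0, 95.6, 83.4 and 98.4 in Kat6a-/-Tg(Kat6b) embryos. These ranges overlapped in each comparison. The log2 fold change was -0.19 (SE 0.0400, edgeR FDR 0.0239) against wild type, -0.21 (SE 0.0393, FDR 0.00397) against Kat6a-/-Kat6b+/+ and -0.19 (SE 0.0417, FDR 0.0158) against Kat6a+/+Tg(Kat6b). With no surrogate variable these were -0.11 (FDR 0.632), -0.12 (FDR 0.375) and -0.06 (FDR 0.717). The call against wild type was also lost without any 1 of 6 embryos: wild-type replicates 1 (FDR 0.0889) and 2 (-0.10, FDR 0.321) and Kat6a-/-Tg(Kat6b) replicates 1 (FDR 0.0728), 2 (FDR 0.103), 3 (FDR 0.148) and 4 (FDR 0.0562). Against Kat6a+/+Tg(Kat6b) it was lost without wild-type replicate 2 (-0.13, FDR 0.0719) and Kat6a-/-Tg(Kat6b) replicates 1 (FDR 0.0603) and 3 (FDR 0.0786), and against Kat6a-/-Kat6b+/+ in none of the 16 fits.

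Between Kat6a-/-Tg(Kat6b) and Kat6a-/-Kat6b+/+ embryos, which share the loss of Kat6a, Rbpj was called higher and Meox1 lower, beside 3.39% and 3.74% of all genes. The ranges of Rbpj lay apart, as for 7.29% of all genes in that direction. Mfng, a Notch-modifying glycosyltransferase, was at 22.4, 21.0, 23.2 and 19.6 CPM with the transgene and 26.4, 24.7, 28.2 and 23.5 without it, ranges that did not overlap, as for 7.94% of all genes in that direction and for Notch3. Its log2 fold change was -0.21 (-0.36 to -0.07, edgeR FDR 0.0618), and it was called without wild-type replicate 2 (FDR 0.0420), Kat6a-/-Kat6b+/+ replicate 4 (FDR 0.0284) or Kat6a+/+Tg(Kat6b) replicate 1 (FDR 0.0422). Hes1 had 0.19 (0.05 to 0.33, edgeR FDR 0.0805) and was called without wild-type replicate 1 (FDR 0.0391) or 2 (FDR 0.0416) or Kat6a+/+Tg(Kat6b) replicate 1 (FDR 0.0309). Jag1, a ligand, had 0.11 (0.01 to 0.21, edgeR FDR 0.179). Myog, the factor of myoblast differentiation, had -0.34 (-0.63 to -0.04, edgeR FDR 0.154). A fit on these 8 embryos alone called 11 of the genes, and 2384 genes in all against 1119.

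Both genotypes with the transgene, Kat6a-/-Tg(Kat6b) compared to Kat6a+/+Tg(Kat6b), differ in Kat6a, and 6 of the 30 genes were called between them. Rbpj and Notch2 were called higher and Lfng, Dll1, Uncx and Meox1 lower, which is 2 of 30 beside 2.28% of all genes higher and 4 of 30 beside 1.14% lower. At an unadjusted p under 0.05, 4 were higher and 9 lower, beside 10.6% and 8.3% of all genes. The 4 receptor and effector genes (Notch1, Notch2, Notch3 and Rbpj) were all above 0, with a median of 0.28, while all 8 cyclic and target genes, all 4 ligands and the 3 tested myotome genes were below 0. Markers of other tissues moved in the same contrast. All 5 endothelium markers were above 0 (median 0.22, 2 called higher), and their summed level was 328 to 366 CPM in Kat6a-/-Tg(Kat6b) and 297 to 327 CPM in Kat6a+/+Tg(Kat6b) embryos. Of the 5 neural tube markers 4 were below 0 (median -0.21, 2 called lower), with sums of 644 to 742 and 702 to 783 CPM, and all 5 markers of primitive red cells were below 0 (median -0.30, none called by edgeR), with sums of 3209 to 3892 and 4106 to 5138 CPM. No marker of these lists was at 0 in all embryos of a genotype, and the part of these tissues in the differences of the 30 genes was not tested. The median of the 30 was -0.12, against -0.0078 over all genes, and 24 were below 0, beside 52.5% of all genes. The ranges lay apart for 2 genes higher and 7 lower (Hes1, Hes5, Lfng, Nrarp, Dll1, Tcf15 and Uncx), beside 6.09% and 4.37% of all genes.

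Lfng (Entrez 16848, GRCm39 chr5:140593075-140601300, plus strand) was at 51.6, 49.0, 57.0 and 50.9 CPM in Kat6a+/+Tg(Kat6b) and 41.8, 44.0, 40.0 and 43.5 in Kat6a-/-Tg(Kat6b) embryos, with no overlap. It was at 45.7, 43.2, 50.9 and 47.1 CPM in wild type and 44.4, 39.1, 42.1 and 42.7 in Kat6a-/-Kat6b+/+ embryos, so that both Kat6a-/- genotypes lay lower than the Kat6a+/+ genotypes by their means. The log2 fold change between the transgenic genotypes was -0.27 (SE 0.0641, 95% interval -0.41 to -0.14, edgeR FDR 0.0232), and against wild type Kat6a-/-Kat6b+/+ had -0.15 (-0.27 to -0.03, FDR 0.205). The interaction was -0.12 (-0.30 to 0.06), so the 2 differences were not shown to differ. The call was lost without Kat6a-/-Kat6b+/+ replicate 1 (FDR 0.0508), Kat6a+/+Tg(Kat6b) replicate 1 (FDR 0.0834) and Kat6a-/-Tg(Kat6b) replicates 1 (FDR 0.0607) and 3 (FDR 0.0986), and with offsets for each library's trend over gene length (-0.23, FDR 0.0748). Lfng and Uncx lie 1059141 bases apart on chromosome 5.

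Dll1 (Entrez 13388, GRCm39 chr17:15587276-15597134, minus strand), the main ligand of the presomitic mesoderm, was at 60.6, 69.0, 60.1 and 69.8 CPM in Kat6a-/-Tg(Kat6b) embryos and 66.7, 63.7, 61.9 and 57.5 in Kat6a-/-Kat6b+/+ embryos. Against the Kat6a+/+Tg(Kat6b) values given above the highest Kat6a-/-Tg(Kat6b) embryo and the lowest embryo with intact Kat6a were less than 0.1 CPM apart. The log2 fold change was -0.21 (SE 0.0575, 95% interval -0.33 to -0.09, edgeR FDR 0.0468), and the call was lost in 14 of the 16 fits that left out 1 embryo, in which it ran from -0.24 to -0.15, and kept without wild-type replicate 2 or Kat6a+/+Tg(Kat6b) replicate 4. It was also lost with no surrogate variable (FDR 0.0855) or 1 (FDR 0.0714), with sex as covariate (FDR 0.0710), with DESeq2 size factors (FDR 0.0554) and with only the genotypes compared (FDR 0.0966). Genes on the opposite strand cover 34.8% of its exon bases, and whether the counting used strand is not given in the sources used here. Uncx had -0.30 (SE 0.0768, 95% interval -0.46 to -0.14, edgeR FDR 0.0341) against Kat6a+/+Tg(Kat6b) embryos, which were at 21.8, 21.1, 23.0 and 20.1 CPM, and all 4 embryos without Kat6a lay below them. That call was lost in 9 of the 16 fits (log2 fold change -0.34 to -0.25, FDR up to 0.130), those without Kat6a-/-Kat6b+/+ replicate 3 or any 1 of the 8 transgenic embryos. It was also lost with no surrogate variable (FDR 0.0623) and with the gene length offsets (-0.27, FDR 0.0918).

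Notch2 (Entrez 18129, GRCm39 chr3:97920800-98057677, plus strand) was at 115, 111, 113 and 107 CPM in Kat6a-/-Tg(Kat6b) embryos, all above the Kat6a+/+Tg(Kat6b) values but within the wild-type range, and at 118, 114, 130.0 and 133 in Kat6a-/-Kat6b+/+ embryos. The log2 fold change was 0.31 (SE 0.0752, 95% interval 0.15 to 0.47, edgeR FDR 0.0393). The transcripts of the receptors are long, and 1 library stood apart from the others of its genotype over long genes. Notch1, Notch2 and Notch3 are 9489, 10506 and 8054 bases long in the deposited lengths. Over 583 genes longer than 8000 bases, each embryo was set against the mean of the other embryos of its own genotype. The median log2 difference was -0.27 in Kat6a+/+Tg(Kat6b) replicate 1 and -0.098 to 0.12 in the other 15. This measure leaves out any shift of long genes between genotypes. That embryo was at 81.0 CPM for Notch2 and 100.5 for Notch1, the lowest of all 16 for both. Without it the log2 fold change of Notch2 was 0.21 (edgeR FDR 0.169), with the gene length offsets it was 0.11 (FDR 0.197), and with no surrogate variable it was 0.21 (FDR 0.179) with that embryo included. The part of gene length in this difference was not tested. The call was lost in 11 of the 16 fits without 1 embryo and kept without wild-type replicates 1 or 4, Kat6a-/-Kat6b+/+ replicate 4 or Kat6a+/+Tg(Kat6b) replicates 2 or 3. In the same contrast Notch1 had 0.26 (0.09 to 0.43, edgeR FDR 0.0905), Notch3 0.18 (0.05 to 0.31, FDR 0.125, and 0.0295 without Kat6a+/+Tg(Kat6b) replicate 3), Hes5 -0.28 (-0.44 to -0.11, FDR 0.0623) and Tcf15, needed for the epithelial somite, -0.26 (-0.43 to -0.10, FDR 0.0719). Hes5 was called in 5 of the 16 fits, without wild-type replicates 2 (FDR 0.0254), 3 (FDR 0.0470) or 4 (FDR 0.0397) or Kat6a+/+Tg(Kat6b) replicates 2 (FDR 0.0377) or 4 (FDR 0.0306). It was also called with no surrogate variable (-0.40, FDR 0.0414) or 1 (FDR 0.0476), sex as covariate (FDR 0.0465), DESeq2 (adjusted p = 0.0305), no filter (FDR 0.00289) or only the genotypes compared (FDR 0.000106). It was not called with limma-voom, DESeq2 size factors, 10 counts in every embryo, the replicate block or gene length offsets. Pax1 (-0.30, FDR 0.147) was called without Kat6a+/+Tg(Kat6b) replicate 1 (-0.44, FDR 0.0159), with no filter (FDR 0.0170) and with 10 counts in every embryo (FDR 0.00599).

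**Figure D4:**
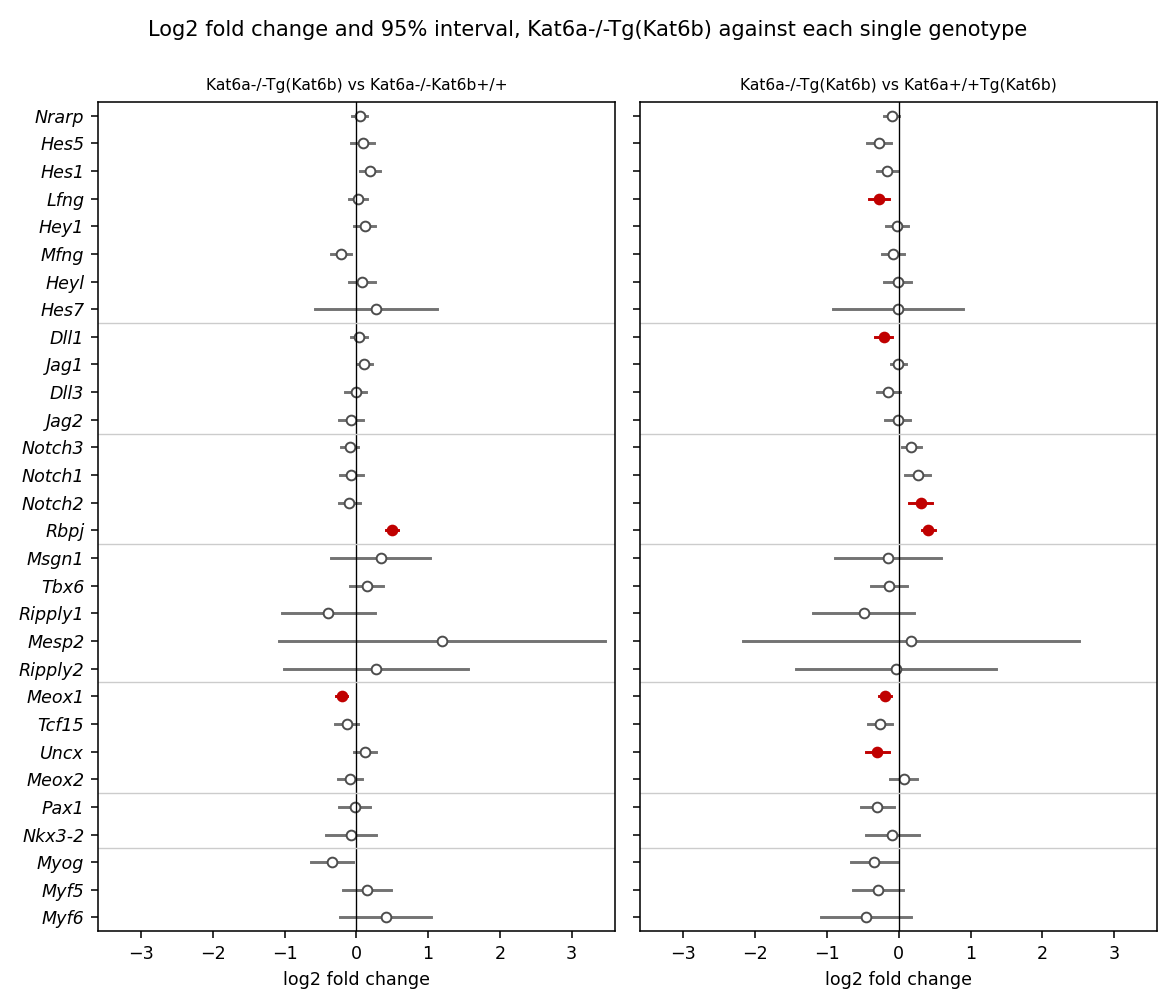
Log2 fold changes of the 30 tested genes in Kat6a-/-Tg(Kat6b) embryos against Kat6a-/-Kat6b+/+ embryos and against Kat6a+/+Tg(Kat6b) embryos, with 95% intervals and filled red points for genes at an edgeR FDR under 0.05. Rbpj is filled on the right of both panels and Meox1 on the left of both, and Notch2, Lfng, Dll1 and Uncx are filled against Kat6a+/+Tg(Kat6b) embryos.

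**Figure D5:**
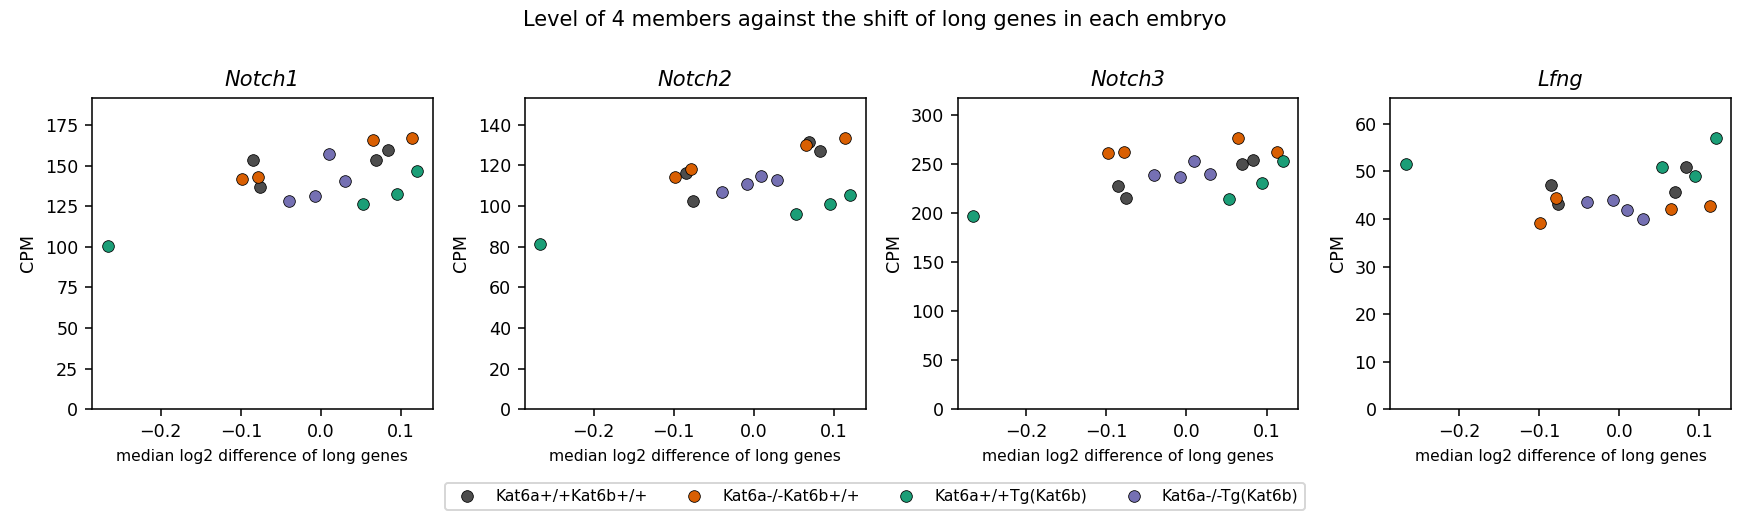
CPM of Notch1, Notch2, Notch3 and Lfng in each embryo against the median log2 difference of the 583 long genes between that embryo and the others of its genotype. Kat6a+/+Tg(Kat6b) replicate 1 stands alone on the left at -0.27 and has the lowest CPM of the 3 receptors, and its Lfng (51.6 CPM) is among the other embryos of its genotype.

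The 11 genes with no unadjusted p under 0.05 in any contrast or the interaction were Dll3, Hes7, Heyl, Jag2, Meox2, Mesp2, Msgn1, Myf5, Nkx3-2, Ripply1 and Ripply2. Their log2 fold changes in the 5 contrasts ran from -1.003 to 1.19, both from Mesp2, whose 95% intervals reached from -3.29 to 3.47. For Hes7, the core of the clock, the intervals taken over the 5 contrasts reached from -1.28 to 1.12 and for Msgn1 from -0.88 to 1.41. Changes as large as these bounds were therefore not excluded in every contrast. For Dll3, a Delta protein that acts within the cell, they reached only from -0.30 to 0.20 and for Jag2 from -0.24 to 0.23. Myf5, the earliest myogenic factor, had intervals from -0.64 to 0.62.

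Known pairs of genes were compared embryo by embryo after the genotype mean was removed from log2 CPM (n = 16, permutation test with 100000 permutations, 4 pairs, two-sided, Benjamini-Hochberg adjusted). Mesp2 and its feedback partner Ripply2 had Pearson's r = 0.3004 (p = 0.288, adjusted 0.385) and Spearman's rho = 0.321 (p = 0.279, adjusted 0.457). Hes7 and Lfng, both cyclic, had r = 0.419 (permutation p = 0.168, adjusted 0.355) and rho = 0.338. Myf5 and Myog had r = 0.413 (permutation p = 0.177, adjusted 0.355) and rho = 0.294, and Pax1 and Nkx3-2 r = 0.200 (permutation p = 0.532, adjusted 0.532) and rho = 0.218. None of the 4 passed. Without the 2 embryos farthest from the median of the first gene r was 0.492, 0.636, 0.238 and 0.177 in that order. Within the 8 female embryos r was 0.556, 0.559, 0.453 and -0.193, and within the 8 male embryos -0.0349, 0.286, 0.506 and 0.461. The embryos share litters, and r of Hes7 with Lfng was 0.725 (permutation adjusted p = 0.0390) without wild-type replicate 2.

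Other genes of the same pathways were counted from 2 further lists. Of 36 other Notch pathway genes none was called by edgeR in Kat6a-/-Kat6b+/+ or in Kat6a+/+Tg(Kat6b) embryos against wild type, and at an unadjusted p under 0.05 there were 2 higher and 4 lower in the former and 1 higher and 4 lower in the latter. Of all genes 7.3% were higher and 7.93% lower in the former, and 4.09% and 7.42% in the latter. Hes6, a Hes family member that acts against Hes1 and promotes differentiation, was called lower in Kat6a-/-Tg(Kat6b) embryos, at a mean of 33.4 CPM, against wild type (42.5 CPM, log2 fold change -0.32, edgeR FDR 0.00926), Kat6a-/-Kat6b+/+ (41.8 CPM, -0.30, FDR 0.00303) and Kat6a+/+Tg(Kat6b) (41.2 CPM, -0.27, FDR 0.0163). Among all genes 0.395%, 3.74% and 1.14% were called lower in these contrasts, in that order. Against Kat6a-/-Kat6b+/+ embryos 2 of the 36 were called higher and 3 lower, beside 3.39% and 3.74% of all genes, so that these shares are near the background. The others were Numb, an inhibitor of Notch (0.23, edgeR FDR 0.0149), Mib1, the ubiquitin ligase that activates ligands (-0.22, FDR 0.00524), Dtx4 (-0.24, FDR 0.0278) and Itch (0.21, FDR 0.00318), the last named after its value was seen.

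Of 26 other presomitic and somite genes 20 were below 0 in Kat6a-/-Kat6b+/+ against wild-type embryos, and 2 were called, both lower, beside 48.8% of all genes below 0 and 0.938% called lower. Aldh1a2, which makes retinoic acid in somites, was at a mean of 61.6 against 74.4 CPM (log2 fold change -0.27, edgeR FDR 0.00140), and Foxc2, a forkhead factor of somites and vessels, at 38.5 against 46.4 CPM (-0.28, FDR 0.00850). Aldh1a2 and Foxc2 were also called lower in Kat6a-/-Tg(Kat6b) against wild-type embryos (-0.28, edgeR FDR 0.00444, and -0.26, FDR 0.0346) and, with Spry2 (-0.23, FDR 0.0470), against Kat6a+/+Tg(Kat6b) embryos (Aldh1a2 -0.28, FDR 0.00306, and Foxc2 -0.35, FDR 0.00306). That is 2 of 26 beside 0.395% of all genes called lower against wild type, and 3 of 26 beside 1.14% against Kat6a+/+Tg(Kat6b). T, the mesoderm factor Brachyury, was called higher with the transgene alone, at 18.6 against 13.5 CPM (0.59, edgeR FDR 0.0423), beside 0.14% of all genes called in either direction. Over all genes, 22 were called in that contrast, 5 with no surrogate variable and 1 with litter as a block. How calls in the further lists fared under alternative runs was not examined. Lef1, named after its value was seen, was higher in Kat6a-/-Tg(Kat6b) against Kat6a-/-Kat6b+/+ embryos (0.21, edgeR FDR 0.0439), beside 3.39% of all genes called higher. None of the other Notch pathway, presomitic and somite genes was called by edgeR in the interaction, beside 0.153% of all genes. At an unadjusted p under 0.05, 5 were higher and 2 lower, beside 1172 and 1112 of all 15679 genes tested.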

How the data were processed

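Libraries were made from whole-embryo RNA with a TruSeq RNA kit. Per the study's methods and the submitters' processing notes, the authors aligned reads to mm39 with Rsubread and deposited whole-number counts per gene from featureCounts, beside other columns for the Entrez identifier and the gene length, with no normalization. Strand setting, annotation and the handling of shared reads are not given in the sources used here. From these counts, genes were kept by filterByExpr (minimum count 10, 15679 of 26411 genes), library sizes were scaled by TMM, and 2 surrogate variables (sva 3.50.0, 20 permutations) entered a robust quasi-likelihood fit in edgeR 4.0.16 (R 4.3.3) over 16 embryos, with Benjamini-Hochberg adjustment over all tested genes. The script was tested on simulated data. limma 3.58.1 and DESeq2 1.42.0 served as alternatives. CPM used TMM library sizes and RPKM the deposited gene lengths. Fold changes carry model-based 95% intervals. Counts of embryos of 1 genotype were compared in pairs and differed by a chi-square of 1.83 to 15.8 per degree of freedom. The lowest value was between Kat6a-/-Tg(Kat6b) replicates 2 and 4, labelled as litters 483 and 498, and the next was 3.50. Within a genotype no library repeated the counts of another, but this cannot show that all came from different embryos. Pairs across genotypes were not compared in this way. By Xist and Y gene counts 0 embryos went against their sex label. The deposit does not pair embryos across genotypes. The p-values measure the spread between embryos, many of them littermates within a genotype, and the main fit has no term for litter. They do not measure the spread between litters.

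The 32 genes, the further lists and the tests were chosen with earlier results of these data known. Values in every embryo were printed for genes at an FDR under 0.05 in any contrast or the interaction, up to 2 others a role group were named by unadjusted p, with the highest and lowest wild-type RPKM of each group and up to 4 called genes of each further list by size of change. Positions are GRCm39 (GENCODE) and promoters GRCm38.p6 (RefSeq). A list of other sclerotome and muscle genes is not reported here. The gene length offsets were chosen after seeing the data.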

Additional observations from a re-analysis of the deposited data

Results flagged for a closer look

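In groups of 4 embryos, a highest or lowest value with a gap to the nearest other above Dixon's 95% critical share of the group's range was looked for in 128 groups of 1 gene and 1 genotype. It was found in 6, and chance gives about 1 in 20. Hes1 was at 43.0 CPM in Kat6a-/-Tg(Kat6b) replicate 3 against 45.6 to 45.8 in the other 3 embryos. Notch3 was at 276 CPM in Kat6a-/-Kat6b+/+ replicate 3 against 261 to 262, and at 252 in Kat6a-/-Tg(Kat6b) replicate 1 against 237 to 239. Mesp1 and Mesp2 both stood high in Kat6a+/+Tg(Kat6b) replicate 3, at 0.660 CPM against 0.0853 to 0.165 and at 2.60 CPM against 0.341 to 0.393. Meox2 was at 15.02 CPM in Kat6a+/+Tg(Kat6b) replicate 4 against 12.8 to 13.2.

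The effect of losing Kat6a on Rbpj differed with and without the transgene, with an interaction of 0.43 on the log2 scale (edgeR FDR 0.00209). No other genotype analysed here came from the litters of the Kat6a-/-Tg(Kat6b) embryos, so genotype and litter cannot be told apart in this difference.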

How the results depend on the processing

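Rbpj was called in its 3 contrasts and the interaction under each alternative run that tested them. The run with litter as a block left out the Kat6a-/-Tg(Kat6b) embryos and so tested none of these, and the fits on only the genotypes compared had no interaction. The number of genes called out of 30 moved otherwise. For Kat6a-/-Kat6b+/+ against wild type it was 1, and 0 with no surrogate variable, with litter as a block or at an FDR under 0.01, 2 with no filter on low counts or with gene length offsets, and 0 to 2 without 1 embryo. For Kat6a+/+Tg(Kat6b) against wild type it was 0, and 2 with DESeq2 or with 10 counts in every embryo, 1 with no filter, and 0 to 1 without 1 embryo. For Kat6a-/-Tg(Kat6b) against wild type it was 2, and 1 with no or 1 surrogate variable, sex as covariate, the replicate block or an FDR under 0.01, and 1 to 3 without 1 embryo. Against Kat6a-/-Kat6b+/+ it was 2, and 1 with no or 1 surrogate variable, sex as covariate or 10 counts in every embryo, 11 with only the genotypes compared, 4 with gene length offsets, and 2 to 4 without 1 embryo. Against Kat6a+/+Tg(Kat6b) it was 6, and 3 with no surrogate variable, the replicate block or gene length offsets, 1 at an FDR under 0.01, and 1 to 6 without 1 embryo. In that contrast it was 4 with 1 surrogate variable or sex as covariate and 5 with DESeq2 size factors. It rose to 7 with limma-voom or no filter, 8 with DESeq2 or 10 counts in every embryo, and 9 with only the genotypes compared. The interaction kept 1. Signs turned for Nrarp (0.018) and Hes5 (0.012) without Kat6a and for Hes5 (-0.023) with the transgene alone, with litter as a block, and for Hes1 (-0.0063) in Kat6a-/-Tg(Kat6b) against Kat6a-/-Kat6b+/+ embryos with 10 counts in every embryo. The cause was not tested. Over all genes the calls ran from 18 to 433 (reported 295), 1 to 315 (22), 26 to 346 (105), 98 to 2384 (1119), 76 to 1743 (535) and 10 to 138 (24) in the same order. Of the single gene values in the runs other than those without 1 embryo, 468 kept their sign and call status, 28 gained a call, 38 lost it and 4 turned in sign. Calls lost without 1 embryo are not in these counts. Without 1 embryo, r ran from 0.144 to 0.412 for Mesp2 with Ripply2, 0.245 to 0.725 for Hes7 with Lfng, 0.216 to 0.653 for Myf5 with Myog and -0.013 to 0.653 for Pax1 with Nkx3-2.

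Replicate numbers did not pair the embryos: same-numbered embryos of different genotypes had correlations of -0.255 to 0.215, 10 of 24 over 0.1, and 4 of 16 embryos correlated best with their own number. With the replicate block the calls were 1, 0, 1, 2, 3 and 1 in the order above, and 260, 12, 97, 944, 286 and 34 over all genes. A litter block could not be fitted for Kat6a-/-Tg(Kat6b) embryos. Genes at few counts, such as Mesp2, Ripply2 and Myf6, have intervals too wide to show changes of the size called elsewhere.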

Other observations

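Genes within 5000000 bases of the called genes were counted as a description. Around Meox1 on chromosome 11, 210 genes were tested, of which 4 were called in Kat6a-/-Tg(Kat6b) against wild-type embryos (1.9% beside 0.67% of all genes), 12 against Kat6a-/-Kat6b+/+ (5.71% beside 7.14%) and 14 against Kat6a+/+Tg(Kat6b) embryos (6.67% beside 3.41%). Around Notch2 9 of 122 (7.38%) and around Dll1 4 of 48 (8.33%) were called in that last contrast, around Lfng 4 of 154 (2.6%) and around Uncx 4 of 165 (2.42%). Around Uncx none of 165 was called by edgeR in Kat6a-/-Kat6b+/+ against wild-type embryos, beside 1.88% of all genes. Genes near each other on a chromosome are not independent, and no test was made.

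Genes on the opposite strand overlapped exons of 13 of the 32 genes, over more than 10% of the exon bases for 7: Nrarp (86.5%), Dll1 (34.8%), Hes5 (32.1%), Hes7 (20.7%), Ripply2 (18.9%), Notch1 (14%) and Mesp2 (13.3%). Reads of such partners cannot be told apart in counts made without strand.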
